A study of Homo sapiens with 4 samples.

Results

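The 10 keratin genes KRT81, KRT86, KRT80, KRT8, KRT18, KRT19, KRT7, KRT5, KRT15 and KRT17 were followed in RNA-seq libraries of DU145, an established line of human prostate cancer cells grown from a metastasis. They were found by matching the Ensembl gene ID of each row, with its version dropped, to these symbols, and are 10 of 60614 gene rows; the tables hold 45 other keratin genes. The members were chosen by the measured difference between the 2 genotypes compared here, in which KRT81 stood among the largest, with further keratins added for comparison. Their differences between genotypes are therefore given as a description, and how many of them the test over all genes called is stated once beside the share of all genes called, with nothing read from it. The 2 groups were DU145 cells of genotype SPOP-F133V and DU145 cells with wild-type SPOP, 2 libraries each. Values of the libraries of a genotype are given in the order replicate 1, replicate 2. Cells of both genotypes grew in the same medium with fetal bovine serum and antibiotics, and no treatment is given. F133V changes a residue of the domain with which SPOP, a ubiquitin ligase adaptor, binds its substrates. How the F133V cells were made (1 clone, a pool, or added SPOP) is not given in the labels, nor is whether replicates were separate cultures. The p-values therefore measure the spread between these libraries alone, and that spread may be technical.

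Keratins are the intermediate filament proteins of epithelial cells. A type I keratin pairs with a type II keratin, and the pair assembles into filaments that carry mechanical load. KRT8 (type II) and KRT18 (type I) are the basic pair of simple epithelia and of luminal prostate cells, joined in many glands by KRT7 (type II) and KRT19 (type I). KRT5 (type II) with KRT15 and KRT17 (type I) belong to the basal layer. KRT81 and KRT86 are type II hair keratins, made in the cortex of the hair shaft and also found in some carcinoma cells.

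Because KRT81 and KRT86 are near copies, stretches of 75 bases, the read length, are shown first to make plain what a read of these genes can and cannot tell apart. They are coding sequence from GENCODE release 29 transcripts on GRCh38, 5′ to 3′ in the sense of each gene, each within 1 exon; KRT83, the adjoining hair keratin, is added. Capitals mark bases that differ from KRT81. Stretches that align without gaps were ranked by their differences from KRT81 summed over KRT86 and KRT83. The stretch with the fewest differences lies at chr12:52291169-52291243 in KRT81 (minus strand), at chr12:52302139-52302213 in KRT86 (plus strand) and at chr12:52321024-52321098 in KRT83 (minus strand).
KRT81: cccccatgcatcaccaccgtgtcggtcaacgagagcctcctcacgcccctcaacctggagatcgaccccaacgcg
KRT86: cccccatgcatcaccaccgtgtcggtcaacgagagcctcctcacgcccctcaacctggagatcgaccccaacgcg
KRT83: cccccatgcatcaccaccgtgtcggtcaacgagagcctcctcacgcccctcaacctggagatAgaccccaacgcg
KRT86 was identical to KRT81 there and KRT83 differed at 1 base. The stretch with the most differences lies at chr12:52287993-52288067 in KRT81, chr12:52305321-52305395 in KRT86 and chr12:52316868-52316942 in KRT83.
KRT81: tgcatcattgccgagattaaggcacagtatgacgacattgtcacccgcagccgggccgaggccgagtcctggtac
KRT86: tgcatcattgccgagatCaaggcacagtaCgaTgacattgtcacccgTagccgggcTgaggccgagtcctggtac
KRT83: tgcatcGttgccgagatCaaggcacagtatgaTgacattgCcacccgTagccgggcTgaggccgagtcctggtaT
KRT86 differed at 5 bases there and KRT83 at 7. As the sum over both genes was ranked, either gene alone may differ more from KRT81 in another stretch. Of 710 such coding windows of KRT81, 427 were identical in KRT86.

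Over whole coding sequences, KRT81 shared 94.2% of aligned bases with KRT86 and 93.4% with KRT83, against 68.0% with KRT8 and 67.7% with KRT7. All windows of read length in 1 transcript of each gene, the one with the longest coding sequence, were then searched in the transcripts of every other gene, on both strands. In KRT81, 36.6% of windows occurred unchanged in another gene, and 52.1% did so with at most 2 mismatches, most often in KRT86. In KRT86 these shares were 33.2% and 46.3%. KRT8 and KRT18, which have many processed pseudogenes, had unchanged copies of 322 of 1613 and 380 of 1488 windows, and copies of 64.8% and 66.7% with at most 2 mismatches. By contrast KRT19, KRT80 and KRT15 had no unchanged copy, and 4.71%, 0.872% and 0.426% of windows with at most 2 mismatches. Alignments of reads that match several places stand in a tally outside the gene counts, where a read may be tallied more than once. They made up 15.1% and 16.6% of everything tallied in the F133V libraries, against 14.6% and 13.6% in the wild-type libraries. The counts of KRT81, KRT86, KRT8 and KRT18 thus leave out an unknown part of their reads, and the part of these tallies in the differences between genotypes was not tested.

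**Figure D1:**
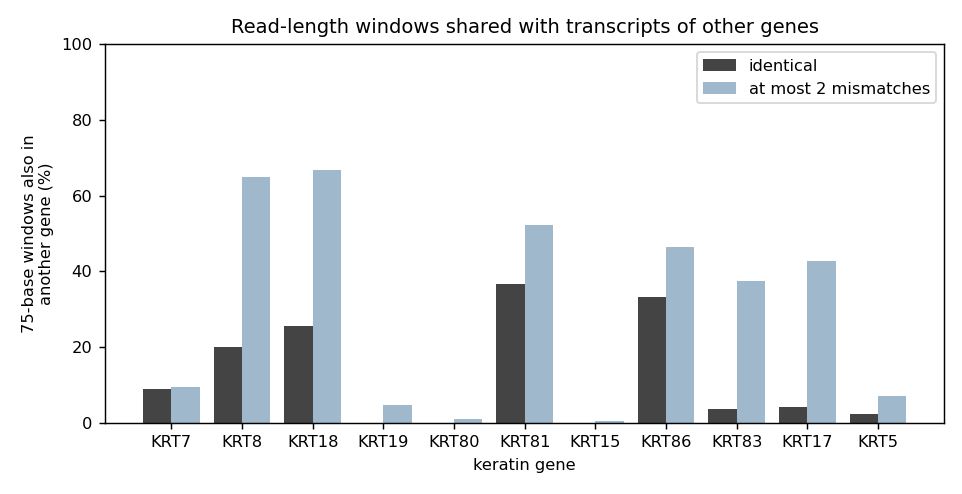
Share of 75-base windows (y axis, %) of each keratin transcript (x axis) that also occur in a transcript of another gene, identical (dark bars) or with at most 2 mismatches (light bars). KRT18, KRT8, KRT81 and KRT86 have the highest shares among the genes shown, and KRT19, KRT80 and KRT15 stay under 5%.

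GENCODE release 29 (GRCh38) places the type II members and KRT18 on chromosome 12 and the other type I members on chromosome 17. KRT81 (ENSG00000205426.10, 52285913 to 52291534, minus strand) lies inside the span of KRT86 (ENSG00000170442.12, 52249300 to 52309163, plus strand), but their annotated exons share 0 bases. KRT8 and KRT18 lie head to head on opposite strands and share 525 exon bases, which is 16.3% of the exon bases of KRT18. KRT7 shares 282 exon bases with its antisense gene KRT7-AS. The sources used here do not say whether counting used strand, and reads from those shared bases cannot be assigned to 1 of the 2 genes if it did not.

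Between 35173245 and 39642063 reads per library were counted in genes. Levels are given as CPM, the count of a gene per 1e+06 counts of a library size scaled by the TMM method. SPOP itself was at 1171.2 and 1150.6 CPM in the F133V libraries, against 843.5 and 906 CPM in the wild-type libraries, and counts per gene cannot tell mutant from wild-type transcripts. A chi-square over genes came to 8.38 per degree of freedom between the F133V replicates and to 1.71 between the wild-type replicates, both above the 1 that counting noise alone gives. The difference between genotypes followed GC content across genes (Spearman rho 0.73 over 11766 genes, which are not independent replicates), as did that between the F133V replicates (rho 0.77). The 8 members tested have transcripts of 55.7% to 62.9% GC, against a median of 48.8% over tested genes, so fold changes are also given after adjusting each library for transcript GC content and length. The epithelial markers EPCAM (2910 to 3841 counts) and CDH1 (3244 to 4451) were detected in every library, but RAB25 had at most 1 count. Of 7 epithelial markers tested, 5 were called higher in F133V cells and 0 lower (median log2 fold change 0.45). Over all tested genes 27.2% were called higher and 27.6% lower. After GC adjustment 6 epithelial markers were called higher and 1 lower, beside 27.6% and 24.5% over all genes. The part of the epithelial markers in the keratin values was not tested. The prostate luminal genes KLK2 and KLK3 had 0 counts. Of 15 markers of blood, fibroblast and endothelial cells, 5 were tested and 4 were called higher in F133V cells (2 after GC adjustment). The shares over all genes were 27.2% higher, and 27.6% higher after GC adjustment. The 15 markers summed to 10.9 and 12.1 CPM in the F133V libraries, against 8.48 and 8.94 CPM in the wild-type libraries. The 4 called were CD14, COL1A1, VWF and KDR. CD14 had 74 and 89 counts in the F133V libraries against 50 and 63 in the wild-type libraries. In the same order COL1A1 had 263 and 266 against 227 and 221. VWF had 11 and 14 against 4 and 2, and KDR 12 and 14 against 7 and 4. After GC adjustment VWF and KDR were still called. CD3E, DCN and LUM had 0 counts and PTPRC at most 1. The part of these markers in the keratin values was not tested.

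KRT81 differed most of the members. Its counts were 1347 and 1344 in the F133V libraries, against 256 and 269 in the wild-type libraries. As levels these were 36.7 and 38.1 CPM in the F133V libraries against 6.52 and 7.54 CPM in the wild-type libraries. Both F133V libraries stood far above both wild-type libraries, with no overlap. The means were 37.4 ± 0.982 CPM in F133V and 7.03 ± 0.720 CPM in wild-type (SD, n = 2 each), a fold of 5.32. The fitted log2 fold change of KRT81 was 2.41 ± 0.0919 (SE), and 2.11 ± 0.0721 after GC adjustment. It was the 25th highest fold change of 17539 tested genes, low-count genes included. Over 12 other settings the KRT81 value stayed between 2.11 and 2.52, and without GC adjustment no library left out brought it below 2.31.

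KRT86, the near copy that surrounds KRT81, was low in both genotypes. It had 90 and 96 counts in F133V replicates 1 and 2, and 51 in each wild-type replicate, or 2.45, 2.72, 1.30 and 1.43 CPM in that order. Both F133V libraries were above both wild-type libraries. The log2 fold change of KRT86 was 0.92 ± 0.182, and 0.63 ± 0.183 after GC adjustment, smaller than that of KRT81 in both fits. KRT83, which is no member and adjoins KRT81 on the other side, had 28 and 48 counts in the F133V libraries against 9 and 13 in the wild-type libraries. KRT83 rose by a log2 fold change of 1.83 ± 0.358, and by 1.53 after GC adjustment (edgeR quasi-likelihood test, Benjamini-Hochberg (BH) adjusted p = 2.09e-04 and 2.40e-04). Summed over KRT81, KRT86 and KRT83, which does not depend on how counted reads were divided among them but still lacks reads that match several copies, the level was 39.9 and 42.2 CPM in the F133V libraries against 8.05 and 9.33 CPM in the wild-type libraries, a fold of 4.72. Within that sum KRT81 held 91.9% and 90.3% in the F133V libraries against 81.01% and 80.8% in the wild-type libraries. KRT86 held 6.14% and 6.45% in the F133V libraries against 16.1% and 15.3% in the wild-type libraries. KRT83 held 1.91% and 3.23% in the F133V libraries against 2.85% and 3.90% in the wild-type libraries. For the shares of KRT81 and KRT86 the genotypes lay apart by more than the replicates did, while for KRT83 they overlapped.

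**Figure D2:**
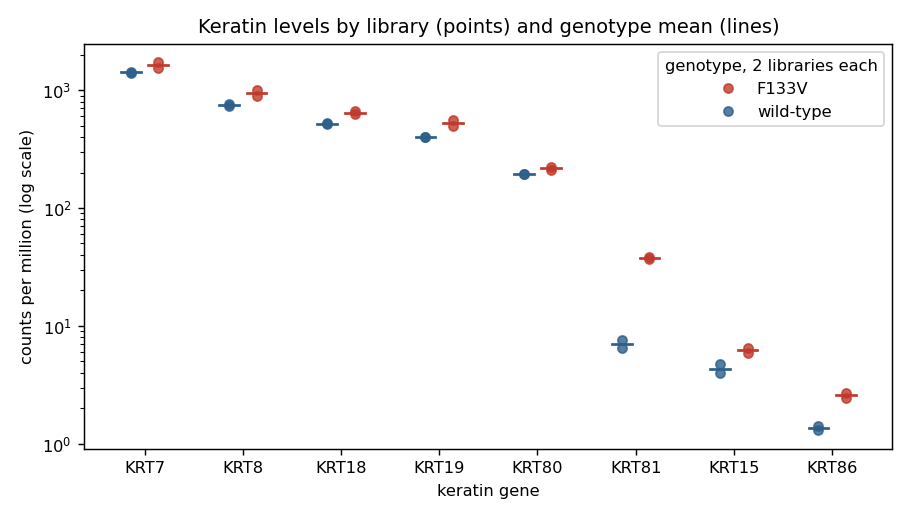
Level of the 8 tested keratins (x axis) in CPM on a log scale (y axis), 1 point per library and a line at the mean of each genotype. KRT81 shows the widest gap between F133V and wild-type, from a mean of 7.03 to 37.4 CPM, while KRT7, KRT8, KRT18, KRT19 and KRT80 lie close together in both genotypes.

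The abundant simple-epithelial keratins were slightly higher in F133V cells. KRT8 was at 891 and 1003 CPM in the F133V libraries, against 755 and 739 CPM in the wild-type libraries. Its type I partner KRT18 was at 630 and 661 CPM in the F133V libraries against 517 and 523 CPM in the wild-type libraries. KRT19, the smallest keratin, which lacks most of the tail domain, was at 495 and 563 CPM in F133V cells and 398 in both wild-type libraries. No F133V library of these genes fell to the wild-type range, but the replicates within F133V were themselves spread. The log2 fold change was 0.34 ± 0.0593 for KRT8, 0.31 ± 0.0545 for KRT18 and 0.41 ± 0.0615 for KRT19. F133V replicate 2 exceeded replicate 1 by 0.17, 0.069 and 0.19 on the log2 scale for KRT8, KRT18 and KRT19. After GC adjustment the log2 fold changes came to 0.12 ± 0.0334 for KRT8, 0.076 ± 0.0325 for KRT18 and 0.095 ± 0.0327 for KRT19. Most of the difference in these 3 genes was thus removed by the adjustment, which would also remove a real difference that follows GC content.

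KRT7, the most abundant keratin, did not keep its direction. Its level was 1533 and 1719 CPM in the F133V libraries, against 1434 and 1402 CPM in the wild-type libraries, and the groups did not overlap. The log2 fold change of KRT7 was 0.20 ± 0.0577 before and -0.12 ± 0.0326 after GC adjustment. KRT80, a type II keratin of differentiating epithelia linked to cell junctions and the cell cortex, was at 211 and 222 CPM in F133V cells and at 194 CPM in both wild-type libraries. Its log2 fold change of 0.16 ± 0.0585 became -0.054 ± 0.0338 after adjustment. KRT7 and KRT80 are the keratin genes before KRT86 and KRT81 along chromosome 12, so the neighbours on that side had none of the large difference of KRT81.

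Basal keratins were low or not detected. KRT15 had 218 and 227 counts in the F133V libraries, against 155 and 169 in the wild-type libraries, or 5.94, 6.43, 3.95 and 4.74 CPM in that order. The F133V values of KRT15 lay above the wild-type values, with a log2 fold change of 0.51 ± 0.127, and 0.33 ± 0.117 after GC adjustment. KRT17 had 2 counts in each F133V library and 1 and 2 counts in the wild-type libraries, too few to compare. KRT5 had 0 counts in all 4 libraries, which allows a level of at most 0.0764 to 0.085 CPM per library (3 counts, counting error only). KRT5 and KRT17 did not pass the filter on low counts.

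Of the 10 members 8 were thus tested, and all 8 of these were called higher in F133V cells (edgeR quasi-likelihood test, two-sided, BH-adjusted p under 0.05 over all genes). Of all 17539 genes tested 54.8% were called and 27.2% were called higher, and nothing is read from the count of members, since the same contrast was in view when they were listed. In each of the 8 both F133V libraries exceeded both wild-type libraries, as they did in 40.1% of all tested genes. The median log2 fold change was 0.38 over the tested members and 0.022 over all tested genes. In the GC-adjusted fit 6 members were called higher, 1 lower (KRT7) and KRT80 was not called; of all genes 52.2% were called there, 27.6% higher and 24.5% lower, and the members' median was 0.11. Without wild-type replicate 1 the members called higher numbered 5, KRT7, KRT80 and KRT15 being lost, and without wild-type replicate 2 they numbered 6, KRT7 and KRT80 being lost.

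**Figure D3:**
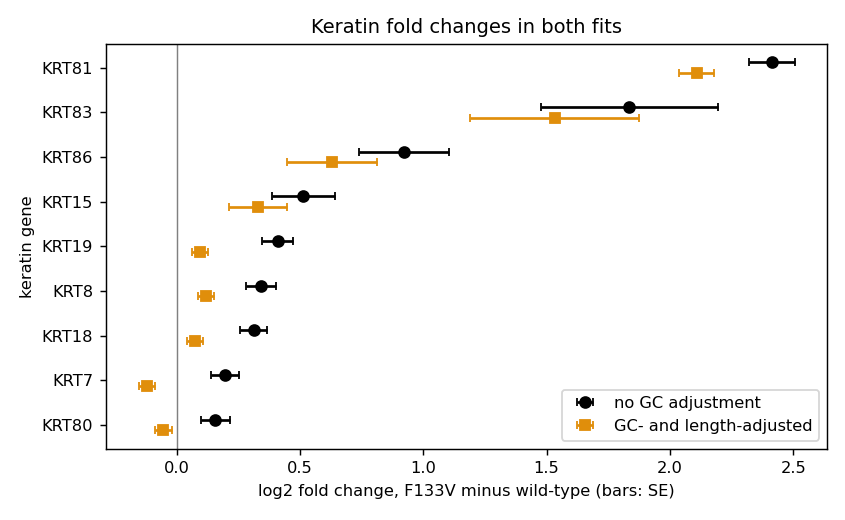
Log2 fold change, F133V minus wild-type (x axis), of the 8 tested keratins and KRT83 (y axis) without (circles) and with (squares) GC and length adjustment; bars are the SE. The adjustment moved every gene shown to the left; KRT81 stayed above 2 in both fits, while KRT7 and KRT80 crossed 0.

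**Figure D4:**
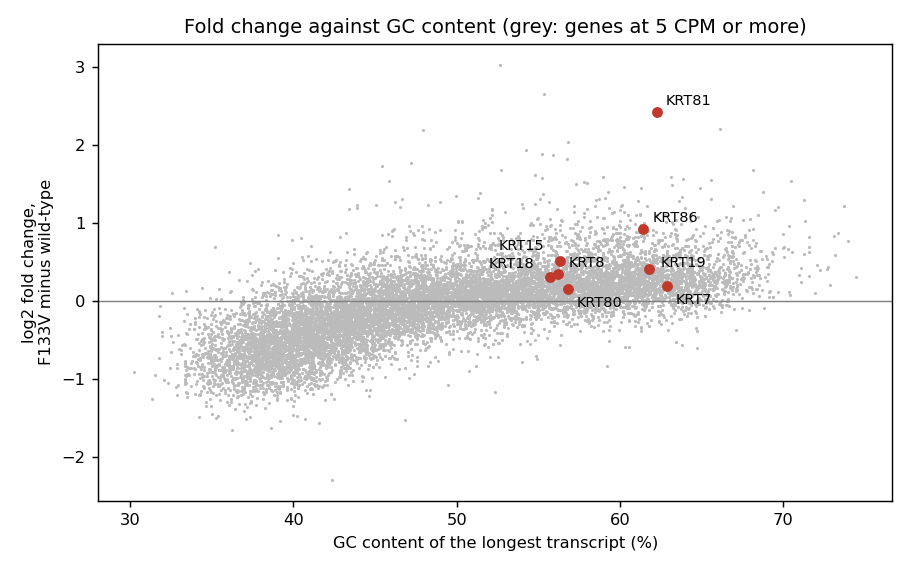
Log2 fold change without GC adjustment (y axis) against the GC content of the longest transcript in % (x axis), for genes averaging 5 CPM or more in either genotype (grey) and the 8 tested keratins (red). The keratins lie at 55.7% to 62.9% GC, on the side where the grey values are higher, and KRT81 stands above the other keratins at 2.41.

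Levels of different keratins were compared per kilobase of the longest annotated transcript (RPKM). In F133V cells KRT7 led with 927 ± 74.7 RPKM, followed by KRT19 with 380 ± 34.5, KRT8 with 331 ± 27.7 and KRT18 with 309 ± 10.4 (SD, n = 2 each). KRT8 and KRT18 overlapped between F133V libraries. KRT80 followed with 55.6 ± 2.06 RPKM and KRT81 with 19.4 ± 0.509 RPKM. KRT15 with 1.18 ± 0.0666 and KRT86 with 1.17 ± 0.0856 RPKM could not be ordered, and KRT17 and KRT5 came last. In wild-type cells the order was the same, with KRT7 at 809 ± 12.9 RPKM and KRT81 at 3.64 ± 0.373 RPKM, still below KRT80 at 49.9 ± 0.101. The places of KRT8, KRT18 and KRT19 depended on the transcript taken. With the transcript of longest coding sequence, KRT8 was at 561 ± 47.0, KRT18 at 413 ± 13.97 and KRT19 at 380 ± 34.5 RPKM in F133V cells.

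Keratins as a whole took 0.391% and 0.427% of gene counts in the F133V libraries, against 0.332% and 0.327% in the wild-type libraries, and the 10 members made up 98.8% to 99.03% of these keratin counts. KRT7 alone held 39.8% and 40.4% of the keratin counts in the F133V libraries against 42.8% and 42.4% in the wild-type libraries. KRT81 held 0.953% and 0.895% in the F133V libraries against 0.195% and 0.228% in the wild-type libraries, so it stayed a minor keratin. The ratio of KRT8 to KRT18 in RPKM of the longest transcripts was 1.03 and 1.11 in the F133V libraries against 1.07 and 1.03 in the wild-type libraries, and the genotypes overlapped. With the union of all exons as length the same ratio was 0.661 and 0.710 in F133V and 0.683 and 0.661 in wild-type libraries, so its level depends on the length taken. The ratio of KRT7 to KRT19 was 2.46 and 2.42 in the F133V libraries against 2.86 and 2.79 in the wild-type libraries, with no overlap. All type II members together exceeded all type I members by a ratio of 1.91 and 1.95 in the F133V libraries against 2.12 and 2.07 in the wild-type libraries. A design of 2 libraries against 2 cannot give an exact permutation p below 0.333, so these ratios carry no test.

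Among the 45 other keratin genes 26 had 0 counts in all 4 libraries and 4 were tested. KRT10, KRT4 and KRT83 were the 3 that reached 1 CPM on average in a genotype. KRT10, a type I keratin of suprabasal epidermis, was at 37.1 CPM in F133V and 35.4 CPM in wild-type cells, with a log2 fold change of 0.067 ± 0.0744 that did not pass (edgeR BH-adjusted p = 0.465). KRT4, of stratified mucosa, was at 3.21 and 2.98 CPM and did not pass either (edgeR BH-adjusted p = 0.580). KRT16, a stress-induced type I keratin with near-identical pseudogenes, rose from 5 and 7 counts in wild-type cells to 14 and 17 in F133V cells. The log2 fold change of KRT16 was 1.41 ± 0.441 (edgeR BH-adjusted p = 0.0106). After GC adjustment it was 1.11 ± 0.452 (edgeR BH-adjusted p = 0.0379). KRT14, the usual partner of KRT5, had at most 1 count per library. KRT16 and KRT14 were picked out after their values were seen.

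The genes whose pattern was most like that of KRT81 were CACNA1H, DEPP1, EGR1, CHI3L2 and PADI2, in that order. Likeness was the distance between log2 CPM values centred per gene over the 4 libraries, among genes that averaged 5 CPM or more in the higher genotype. The distances ran from 0.337 for CACNA1H to 0.485 for PADI2. CACNA1H, a T-type calcium channel subunit, averaged 7.25 CPM in F133V and 1.57 CPM in wild-type libraries. EGR1, an immediate-early transcription factor, averaged 151.5 and 24.2 CPM, and the arginine deiminase PADI2 averaged 69.7 and 18.2 CPM. With 4 libraries of 2 genotypes this measure ranks genes largely by how near their difference is to that of KRT81.

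Linker and regulator genes of keratins moved in both directions. Of 18 linkers and modifiers tested, 7 were called higher and 5 lower, with a median log2 fold change of 0.013, beside 27.2% higher and 27.6% lower over all genes. EPPK1, the plakin epiplakin that binds keratin filaments, rose by 0.92 ± 0.123 on the log2 scale, and JUP, the desmosomal plaque protein plakoglobin, rose by 0.55 ± 0.0715 (edgeR BH-adjusted p = 2.62e-06 and 1.66e-06). DST, the gene of the hemidesmosomal plakin BPAG1, was at 328 ± 51.1 CPM in the F133V libraries against 686 ± 14.4 CPM in the wild-type libraries (SD, n = 2 each), a log2 fold change of -1.07 ± 0.0746 (edgeR BH-adjusted p = 7.58e-10). ITGA6, the integrin of the same junction, fell by 0.60 on the log2 scale (edgeR BH-adjusted p = 4.03e-08). The directions of EPPK1, JUP, DST and ITGA6 held after GC adjustment, where 5 linkers were called higher and 8 lower, beside 27.6% and 24.5% over all genes. Junction genes of this list did not share 1 direction. ITGB4 and COL17A1 rose by 0.40 and 0.22 and DSP fell by 0.45 on the log2 scale (edgeR BH-adjusted p = 8.67e-05, 0.0262 and 4.36e-06). After GC adjustment ITGB4 (0.16) and DSP (-0.35) were still called and COL17A1 (0.047) was not. ITGB4, COL17A1 and DSP were picked out after their values were seen.

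Of 22 tested transcription factors known to act on keratin genes, 12 were called higher and 4 lower, with a median of 0.25, beside 27.2% higher and 27.6% lower over all genes. The largest rise was in FOS, an AP-1 subunit, from 1.57 ± 0.158 to 12.8 ± 1.02 CPM (SD, n = 2 each; edgeR BH-adjusted p = 3.46e-12). JUNB, its AP-1 partner, rose by 0.83 ± 0.0733, CEBPB by 0.80 ± 0.0616 and ELF3, an epithelial ETS factor, by 0.92 ± 0.0708 on the log2 scale (edgeR BH-adjusted p = 1.12e-08, 2.19e-09 and 2.28e-09). The 4 called lower were KLF5 (-0.70), SP3 (-0.81), NR3C1 (-0.64) and FOSL1 (-0.27 on the log2 scale). FOSL1 averaged 228 CPM in F133V and 275 CPM in wild-type libraries. After GC adjustment KLF5 (-0.67), SP3 (-0.24) and FOSL1 (-0.57) were still called lower, and NR3C1 (-0.046) was not called. TP63, the master regulator of basal keratins, had 0 and 2 counts in F133V and 4 and 2 counts in wild-type cells and was not tested. After GC adjustment 10 factors were called higher and 5 lower, with a median of 0.095, beside 27.6% and 24.5% over all genes.

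Other intermediate filament genes and cornification genes were measured beside the keratins. Of 12 other intermediate filament genes tested, 6 were called higher and 2 lower (median 0.11), beside 27.2% and 27.6% over all genes. After GC adjustment 6 were called higher and 4 lower, the lamins LMNA and LMNB2 being added to those lower. VIM, vimentin, the filament of mesenchymal cells, was at 1774 ± 77.7 CPM in F133V and 1606 ± 19.1 CPM in wild-type libraries (SD, n = 2 each), above every keratin in CPM. NES, nestin, rose by 0.67 ± 0.0769, PRPH, peripherin, by 0.84 ± 0.142 and the lens filament gene BFSP1 by 0.92 ± 0.125, while the nuclear lamin LMNB1 fell by 0.29 on the log2 scale (edgeR BH-adjusted p = 3.64e-07, 4.46e-05, 3.25e-06 and 3.27e-04). Of 22 cornified envelope and hair shaft genes, 11 were tested, 5 called higher and 1 lower (median 0.28), beside the same 27.2% and 27.6% over all genes. After GC adjustment 4 were called higher and 3 lower, with a median of -0.0093. The called rises included the arginine deiminases PADI1 (1.24 ± 0.177), PADI2 (1.93 ± 0.0753) and PADI3 (1.23 ± 0.211 on the log2 scale), enzymes known to modify keratins and trichohyalin (edgeR BH-adjusted p = 5.70e-06, 3.47e-13 and 5.20e-05). CSTA, cystatin A of the cornified envelope, was called higher at 15 and 14 counts in F133V cells against 2 and 1 in wild-type cells (replicates 1 and 2). IVL, the 1 called lower, had 52 and 56 counts in F133V cells against 80 and 94 in wild-type cells. Its log2 fold change was -0.63 ± 0.192, and -0.91 after GC adjustment, where TGM1 (-0.47) and S100A3 (-0.27) were called lower too. SPRR1A, SPRR1B, SPRR2A, SPRR3, LORICRIN and TGM3 had 0 counts in every library. These 6, IVL, TGM1, S100A3, VIM, LMNA, LMNB2, RAB25 and TP63 were picked out after their values were seen. So were COL1A1, KDR, KLF5, SP3, NR3C1 and FOSL1.

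**Figure D5:**
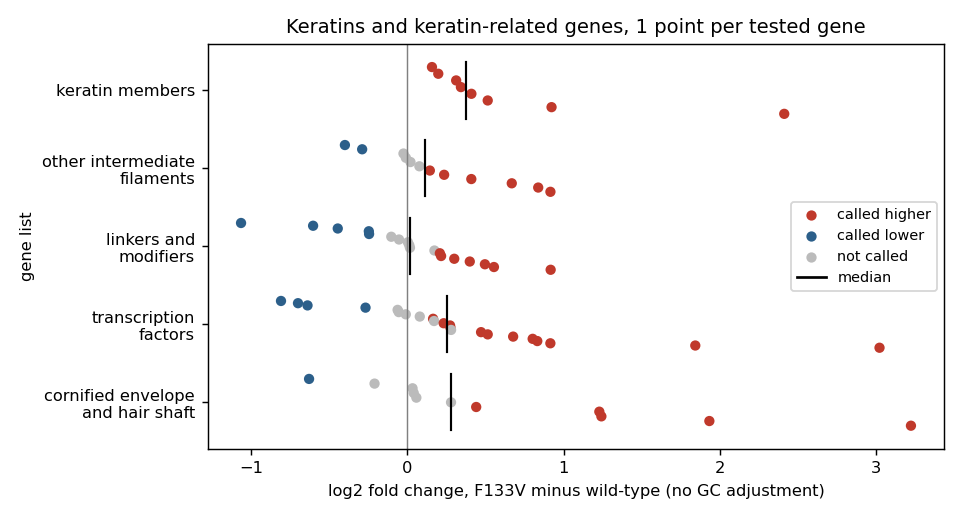
Log2 fold change without GC adjustment (x axis) of each tested gene in 5 lists (y axis), coloured by whether the edgeR test called it higher, lower or neither; black lines are list medians. The linkers lie on both sides of 0 with a median of 0.013, and all 8 tested keratins lie to the right of 0.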

How the data were processed

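RNA of DU145 cells was sequenced as single reads of 75 bases, per the labels' protocols. The authors deposited raw counts per gene, 1 file per library; TopHat2 2.0.10, HTSeq 0.6.0 and hg38 are named in the submitters' processing notes. For the annotation release and strand setting the sources used here give nothing. Rows that tally reads without a gene (non-unique alignments 13.6% to 16.6%) were removed first. Of 60614 gene IDs, 60444 matched a symbol and 58368 a position, GC content and length in GENCODE release 29 (GRCh38).

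Genotypes were compared with edgeR 4.0.16 (R 4.3.3): TMM scaling, the low-count filter filterByExpr, the quasi-likelihood test and Benjamini-Hochberg adjustment at 0.05 over all tested genes. The fits were also run on simulated counts. Those had no GC trend between replicates of a genotype, unlike the F133V libraries, so that run cannot show how the test behaves on these data. CPM uses TMM-scaled library sizes. The GC-adjusted fit adds per-library smooths on GC content and transcript length (mgcv 1.9.3) as offsets. The alternatives were DESeq2 1.42.0 (its test and its size factors), upper-quartile scaling, no filter, a replicate block, each library left out and other transcript lengths. The last, by longest coding sequence, was added after seeing the data.

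The members and gene lists were chosen with earlier results of these data known. Named were all members, SPOP, other keratins with a mean of at least 1 CPM, the 5 genes most like KRT81, and per list up to 4 called genes of lowest adjusted p where 5 or more were called, otherwise up to 2.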

Additional observations from a re-analysis of the deposited data

How the results depend on the processing

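Each setting was changed alone unless 2 are named. Of 108 single-gene values for the 8 tested members and KRT83, 95 kept direction and call, 7 kept direction but lost the call and 6 changed sign. The sign changes were those of KRT80 (log2 fold change -0.054 with GC adjustment, -0.054 with the replicate block added, -0.043 with GC adjustment and F133V replicate 2 left out) and KRT7 (-0.12, -0.12 and -0.13). KRT81, KRT86, KRT8, KRT19 and KRT83 kept direction and call in all 12 alternatives. Members called higher numbered 8, and 5 under the replicate block with GC adjustment, where KRT18 was lost besides KRT7 and KRT80, and 7 with the DESeq2 test, where KRT80 was lost; they ranged from 5 to 8 when 1 library was left out. Members called lower numbered 0, against 1 with GC adjustment, 1 with the block added and 1 with GC adjustment without F133V replicate 2, in each case KRT7. Over all genes, 4763 were called higher and 4841 lower; leaving out 1 library gave 2786 to 5225 higher, the lowest counts being 2819 without wild-type replicate 1 and 2786 without wild-type replicate 2. Upper-quartile scaling shifted the median of all genes by 0.11 on the log2 scale and gave 6462 higher and 3831 lower. In the other keratins and the 4 keratin-related lists, 32 genes were called higher and 12 lower. Those higher came to 21 with the DESeq2 test and to 21 to 34 with 1 library left out (21 without wild-type replicate 1). Those lower came to 20 with GC adjustment, 20 with the block added and 19 with GC adjustment without F133V replicate 2, and to 8 to 14 with 1 library left out. In the order of levels per length in F133V cells, 6 of 10 members kept their place with exon unions and 7 with the transcript of longest coding sequence; in wild-type cells exon unions exchanged the places of KRT8 and KRT18 alone. Where not stated otherwise, the cause was not tested. The labels do not say whether equal replicate numbers of the genotypes share a batch, and this was not tested. Replicate differences of the genotypes correlated at -0.027 across 17539 genes. The replicate difference followed GC content in F133V (Spearman rho 0.77) but hardly in wild-type (rho -0.072). The replicate block alone left 8 members called higher and changed no other call of a member. With 2 libraries per genotype, a library left out leaves 1, assumed to vary like the other genotype. Counts set the precision: KRT86, KRT83 and KRT15 rest on at most 227 counts per library, while KRT19 has at least 14215 and KRT7, KRT8 and KRT18 more.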

Other observations

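The genes in this section were picked out after their values were seen. Of 150 annotated keratin pseudogenes, 67 had reads and 8 were tested, of which 1 was called higher, 2 lower and 5 neither, beside 27.2% higher and 27.6% lower over all tested genes. KRT8P12 had 244 and 242 counts in the F133V libraries (replicates 1 and 2) against 353 and 329 in the wild-type libraries, a log2 fold change of -0.43 ± 0.10 (edgeR Benjamini-Hochberg adjusted p = 0.0015), against 0.34 for KRT8. KRT18P59 had 8 and 9 counts in F133V cells and 20 and 19 in wild-type cells (edgeR adjusted p = 0.0159). KRT16P2 had 51 and 70 counts in F133V cells and 31 in each wild-type library (edgeR adjusted p = 0.00114), in the direction of KRT16. After GC adjustment the log2 fold changes were -0.69 for KRT8P12, -1.10 for KRT18P59 and 0.71 for KRT16P2, and each was still called.

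KRT7-AS, which shares exon bases with KRT7 on the other strand, had 51 and 62 counts in the F133V libraries (replicates 1 and 2) against 54 and 48 in the wild-type libraries, with no call (edgeR adjusted p = 0.419). LINC00592, opposite KRT80, had 32 and 26 counts in F133V cells and 14 in each wild-type library, a log2 fold change of 1.10 ± 0.31 (edgeR adjusted p = 0.00519), against 0.16 for KRT80. After GC adjustment the values were 0.93 for LINC00592 and -0.054 for KRT80. KRT80 and LINC00592 share 0 annotated exon bases.

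HOXC13 and FOXN1, transcription factors of hair keratin genes, were detected together with KRT81. HOXC13 had 253 and 267 counts in the F133V libraries (replicates 1 and 2) against 194 and 185 in the wild-type libraries, a log2 fold change of 0.51 ± 0.116 (edgeR adjusted p = 8.25e-04). After GC adjustment the value of HOXC13 was 0.26 ± 0.107 (edgeR adjusted p = 0.0419). FOXN1 had 21 counts in each F133V library and 8 and 4 in the wild-type libraries (edgeR adjusted p = 7.78e-04). The log2 fold change of FOXN1 was 1.84 ± 0.412, and 1.60 ± 0.425 after GC adjustment. LEF1, which also acts in hair follicles, had 6 and 2 counts in F133V and 9 and 5 in wild-type cells and was not tested. HOXB13, a prostate factor, had 60 counts in F133V replicate 1, 2 in F133V replicate 2 and 0 in both wild-type libraries, so 1 library held nearly all of its reads; KRT81 had 1347 and 1344 counts in these 2 F133V libraries.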
